A study of Mus musculus with 6 samples.

Results

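Interferon response genes are the transcripts that cells raise when interferon binds its receptors, and here they were followed in the liver of mice bred for running performance. A list of 37 such genes was used, and a probe set was taken as a member when its only gene symbol in the array annotation was a listed gene. This gave 44 probe sets of 33 genes, out of 22626 tested probe sets and 12393 genes with a probe set of 1 symbol. Isg15 had only a probe set shared with another symbol, and Oas1g, Ddx58 and Xaf1 had no probe set, so these 4 genes were not analysed here. The rule used names and no measured value, but the list itself was chosen with earlier results of these data known. Counts and shares over the members are therefore descriptions.

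Hepatic mRNA of DUhTP mice, selected over many generations for high treadmill performance, was compared with that of unselected DUC control mice on Affymetrix mouse genome arrays, with 3 arrays per line and no other treatment. All mice were male and 70 days old, and both lines are non-inbred stocks kept in Dummerstorf and derived from crosses of outbred and inbred mice, so a difference between the lines need not come from the selected trait. The methods of the study describe pools of mice and the labels describe a single mouse per array, and every SD and p below is therefore one among 3 arrays, whichever of these they were. Values are PLIER intensities, a linear measure in arbitrary units that combines the probes of a probe set and that is comparable between arrays but not between probe sets.

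Type I interferons bind the receptor chains Ifnar1 and Ifnar2 and, through the kinases Jak1 and Tyk2, activate a complex with Stat2 and Irf9 that binds the interferon-stimulated response element (ISRE). Interferon gamma binds Ifngr1 and Ifngr2 and, through Jak1 and Jak2, leads to binding at the gamma-activated site (GAS). The first route is best known for antiviral effectors such as the IFIT, OAS and Mx proteins. The second is best known for the chemokines Cxcl9 and Cxcl10, the immunity-related GTPases and the immunoproteasome. In liver, hepatocytes, Kupffer cells (the resident macrophages) and endothelial cells all respond to both.

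The promoters of the members were searched for these elements, and a few are shown here for reference beside the intensities. RefSeq promoter windows (GRCm38.p6, from 250 bases before to 50 bases after the start of transcription) were held for 31 of the 37 listed genes, the others being Iigp1, Mx1, Mx2, Oas2, Rtp4 and Usp18. The ISRE was searched on both strands as GAAA and GAAA with any 2 bases between them (TTTC and TTTC on the other strand), with overlapping matches allowed. The GAS was searched as TTC and GAA with any 3 bases between them, which reads the same on both strands. An ISRE match lay in 17 of the 31 genes (54.8%), against 1079 of 27025 genes with a window (3.99%). A GAS match lay in 8 of the 31 (25.8%), against 2582 of 27025 (9.55%). A match describes letters in a window and shows no bound factor. The stretches below give up to 25 bases on either side of the ISRE letters, which stand in capitals, 5′ to 3′ on the strand of the gene. The upper 3 belong to members that were higher in DUhTP mice without overlap of the lines. At an adjusted p under 0.05 Bst2, itself an antiviral effector, and Cxcl10 passed the test. Igtp passed only with 16 added to every intensity. The lower 3 belong to antiviral members of the type I route whose lines overlapped and that passed neither way.
Bst2, chr8:71537562-71537627, minus strand: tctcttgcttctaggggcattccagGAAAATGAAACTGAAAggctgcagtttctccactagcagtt
Cxcl10, chr5:92349068-92349127, minus strand: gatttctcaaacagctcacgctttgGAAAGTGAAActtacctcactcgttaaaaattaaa
Igtp, chr11:58199497-58199555, plus strand: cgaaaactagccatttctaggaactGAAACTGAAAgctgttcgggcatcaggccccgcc
Ifit1, chr19:34640760-34640838, plus strand: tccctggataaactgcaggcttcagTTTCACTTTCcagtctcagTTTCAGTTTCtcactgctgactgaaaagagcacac
Ifit3, chr19:34583348-34583441, plus strand: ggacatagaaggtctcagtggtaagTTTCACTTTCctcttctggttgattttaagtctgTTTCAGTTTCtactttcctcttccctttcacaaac
Rsad2, chr12:26456538-26456597, minus strand: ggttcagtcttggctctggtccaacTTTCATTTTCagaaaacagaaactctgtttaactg
The stretch of Bst2 holds 2 overlapping ISRE matches and 1 GAS match, and that of Igtp, which ends at the base before the start of transcription, holds 1 of each. Ifit1 and Ifit3 hold 2 ISRE matches apiece. The genes shown were chosen among those with an ISRE match, so they do not show how common it was in either group. With 16 added to every intensity before the log, 3 of the 7 higher members with a window held an ISRE match (42.9%). Of the 20 measured members with a window that did not pass that test, 11 did (55.0%).

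Of the 33 measured members, 2 rose in DUhTP mice and 0 fell at an adjusted p under 0.05. These were Bst2 and Cxcl10. That is 6.06% of the members, beside 1.92% of all genes called higher and 1.4% called lower. When 16 was added to every intensity before the log, which damps differences among dim probe sets, 7 members were higher (Bst2, Cxcl10, Cxcl9, Ifi35, Psmb10, Igtp and Ifi47) and 0 lower. These 7 are 21.2% of the members, beside 5.31% of all genes higher and 6.0% lower. In 11 members every DUhTP array lay above every DUC array (33.3%, against 15.6% of all genes) and in 1 member, Trim25, every DUhTP array lay below (16% of all genes). The log2 fold change was positive in 25 of 33 members (75.8%), against 50.2% of all genes, and its median over members was 0.25 with a range from -1.60 to 1.35, beside a median of 0.00 over all genes. The median was 0.16 with 16 added. At an unadjusted p under 0.05, 11 members were higher and 1 lower, where 13.4% and 14.2% of all genes were.

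**Figure D1:**
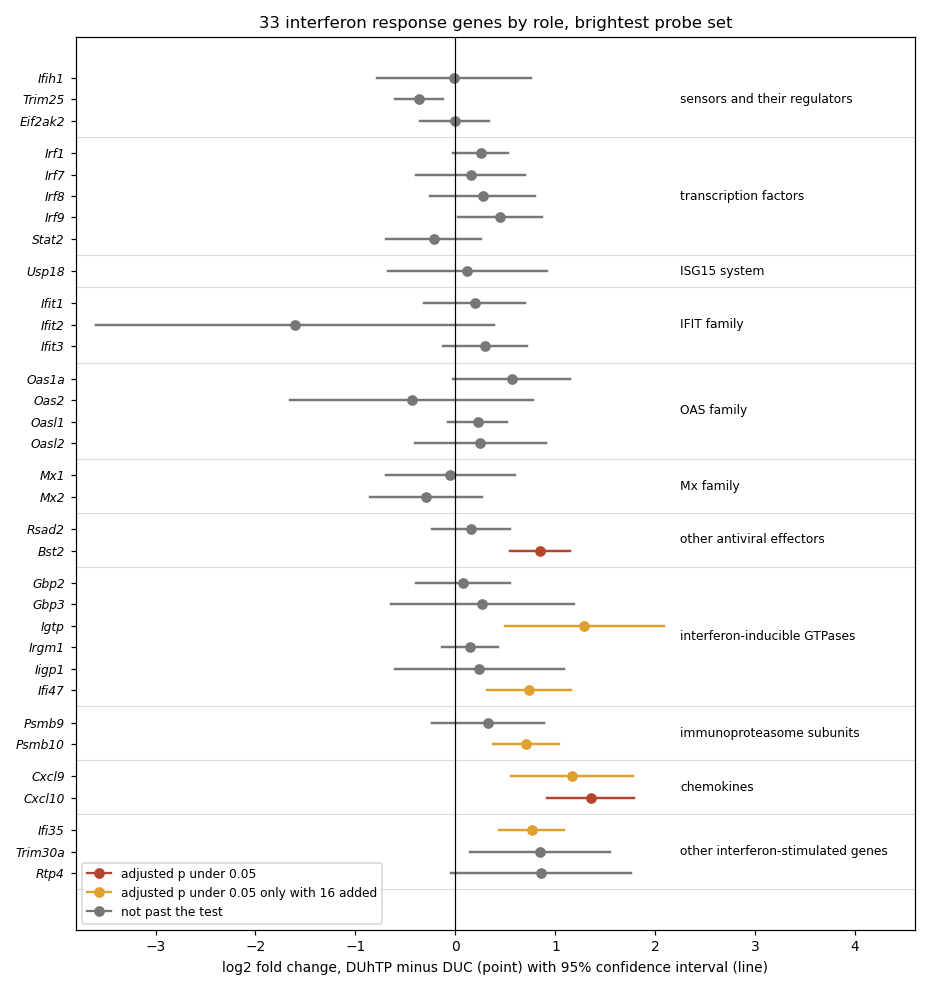
The log2 fold change (DUhTP minus DUC, horizontal axis, points) of the 33 measured members by role, each by its brightest probe set, with the 95% confidence interval as a line. Red marks the 2 genes past the test, yellow the 5 that passed only with 16 added and grey the other 26. The interval of Ifit2, on a dim probe set, runs from -3.59 to 0.39.

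Bst2, also called tetherin, holds budding virus particles at the cell surface. Its intensity was 918, 929 and 932 on the DUhTP arrays and 549, 552 and 453 on the DUC arrays. The DUhTP arrays differed by a ratio of 1.01 between the highest and the lowest, and all stood far above the DUC arrays. The mean was 926 ± 7.43 (SD, n = 3) in DUhTP and 518 ± 56.2 in DUC mice, an FC of 1.79 with a log2 fold change of 0.84 ± 0.12 (SE) and an adjusted p of 0.0335. Without DUC replicate 2 the adjusted p was 0.126, the highest of the 6 values with an array left out, and without DUhTP replicate 2 it was 0.085, the lowest. It was 0.0026 with 16 added, and stayed between 0.00637 and 0.0173 when any array was left out.

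Rsad2 (viperin), the other effector of this group, makes a nucleotide analogue that stops viral polymerases. Its brightest probe set read 74.8, 61.9 and 84.5 in DUhTP and 73.6, 61.4 and 62.8 in DUC mice, so the lines overlapped. Its 3 probe sets gave log2 fold changes of 0.15, 0.16 and 0.42 and none passed the test, with adjusted p from 0.252 to 0.676.

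Cxcl10 had the highest log2 fold change of the members. Cxcl9 and Cxcl10 both bind the receptor Cxcr3 of activated T cells and NK cells, and in the mouse genome they lie next to each other with 1 protein-coding gene between them. The intensity of Cxcl10 was 40.6, 53.4 and 55.9 in DUhTP and 18.6, 17.4 and 22.4 in DUC mice. All DUhTP arrays were above all DUC arrays, on a probe set dimmer than the median probe set (56.6). The FC was 2.56 (log2 1.35 ± 0.18) with an adjusted p of 0.029. Leaving out DUhTP replicate 1 kept the call (0.0483), while the adjusted p was between 0.0776 and 0.12 without any of the other 5 arrays. After adding 16 the log2 fold change was 0.89 and the adjusted p 0.00291, with at most 0.0206 when an array was left out.

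Cxcl9 read 81.5, 103 and 139 in DUhTP and 46.1, 38.8 and 57.9 in DUC mice. The lines did not overlap, and the DUhTP arrays spread over a ratio of 1.70 between the highest and the lowest. The FC was 2.24 with an adjusted p of 0.0747, and after adding 16 it had a log2 fold change of 0.95 and an adjusted p of 0.0113. That call was lost without DUC replicate 1 (0.0504) and without DUC replicate 2 (0.0598).

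**Figure D2:**
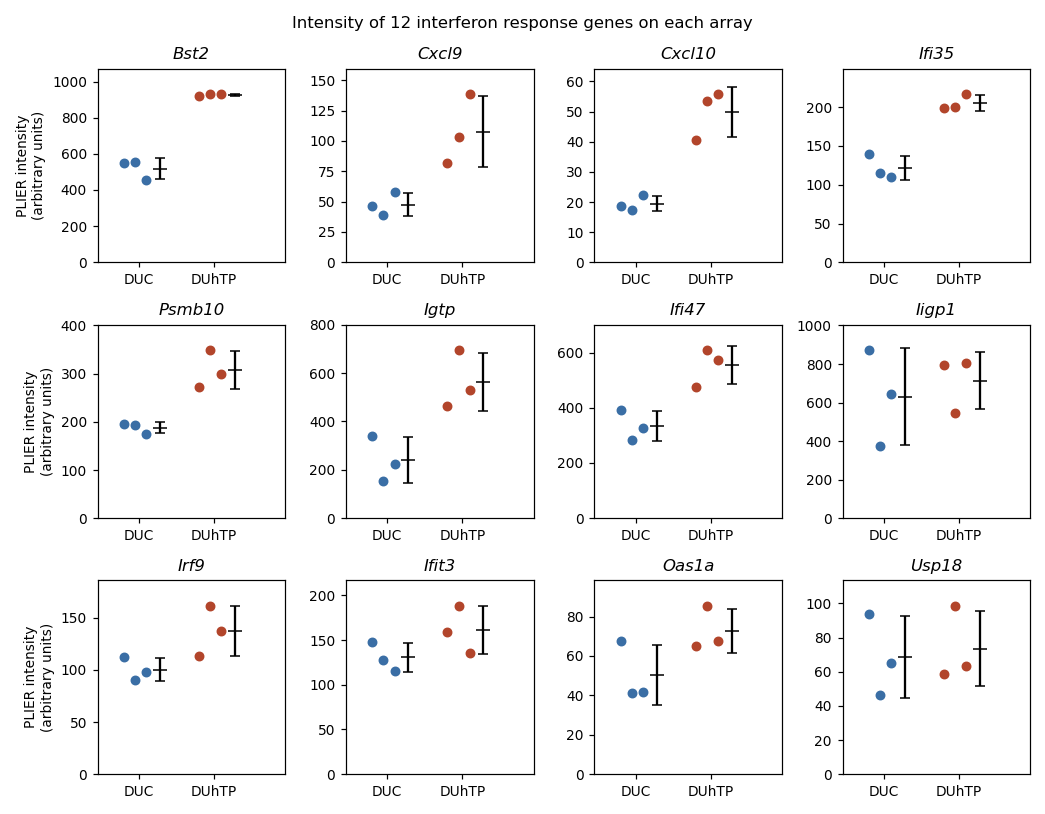
PLIER intensity (vertical axis from 0, arbitrary units) of 12 members on each array, with DUC in blue and DUhTP in red, and the mean ± SD of the 3 arrays as a black bar beside the points. Bst2, Cxcl9, Cxcl10, Ifi35, Psmb10, Igtp, Ifi47 and Irf9 show no overlap of the lines, whereas Iigp1, Ifit3, Oas1a and Usp18 do.

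The interferon-inducible GTPases act on the vacuoles in which intracellular parasites and bacteria live. All 6 measured members of this group had a positive log2 fold change, from 0.08 to 1.29, where 50.2% of all genes had one. Without an added constant 0 passed the test, beside 1.92% of all genes called higher. Igtp and Ifi47 passed with 16 added, beside 5.31% of all genes called higher. Igtp (Irgm3), a regulatory GTPase of lipid droplets and the endoplasmic reticulum, read 463, 696 and 528 in DUhTP and 340.5, 153 and 224 in DUC mice. Every DUhTP array was above every DUC array, though the DUC arrays alone differed by a ratio of 2.23. The FC was 2.44 with an adjusted p of 0.104, and with 16 added the adjusted p was 0.0155. That call was lost without DUC replicate 2 (0.0514) and without DUC replicate 3 (0.0717).

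Ifi47 (Irg47), a GTPase of the same family, read 476, 610.0 and 574 in DUhTP and 391, 283 and 326 in DUC mice. The lines did not overlap, the FC was 1.67 and the adjusted p was 0.0891. It was 0.0171 after adding 16, and then 0.0798 without DUC replicate 2 and 0.0741 without DUC replicate 3.

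Iigp1 (Irga6), an effector GTPase, differed more between arrays of a line than between the lines. Its brighter probe set read 794, 543 and 804 in DUhTP and 874, 375 and 643 in DUC mice, so that the highest value of all was on a DUC array. The 2 probe sets gave log2 fold changes of 0.24 each, with adjusted p of 0.729 and 0.742. Irgm1, the regulatory GTPase needed for control of mycobacteria, read 316, 315 and 346 against 314, 272 and 297. The lines were separated by little and the log2 fold change was 0.15, with a 95% confidence interval from -0.13 to 0.42.

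The guanylate-binding proteins Gbp2 and Gbp3 coat and lyse pathogen vacuoles. Gbp2 read 46.9, 70.2 and 47.0 in DUhTP and 55.2, 50.5 and 47.2 in DUC mice on its brighter probe set, with a log2 fold change of 0.08. Its second probe set, of the type that can match several transcripts, gave 0.37 with no overlap of the lines and an adjusted p of 0.202. Gbp3 gave 0.27 with an adjusted p of 0.73. Members of these families are close in sequence, and cross-hybridization between them was not tested.

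Psmb9 and Psmb10 replace catalytic subunits of the standard proteasome and form the immunoproteasome, which cuts peptides for MHC class I. Psmb10 read 273, 349.6 and 300.0 in DUhTP and 195, 193 and 175 in DUC mice. The lines did not overlap, and the DUC arrays differed by a ratio of only 1.12. The FC was 1.63 (log2 0.71 ± 0.13) with an adjusted p of 0.0603. After adding 16 the adjusted p was 0.0103, and that call was lost without DUC replicate 3 (0.0578). Psmb9 read 94.2, 148 and 110.2 against 114, 86.9 and 78.7. Here the lines overlapped, with a log2 fold change of 0.33 and an adjusted p of 0.464.

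Ifi35, an interferon-induced leucine zipper protein, read 198, 200.5 and 217 in DUhTP and 139.5, 115 and 110.2 in DUC mice. It had no overlap and the smallest spread in DUhTP after Bst2 among the 7 genes named above. Its FC was 1.70 (log2 0.76 ± 0.13) and its adjusted p of 0.0505 lay just outside the threshold. With 16 added it was 0.00737 and passed without any one array, with at most 0.0459.

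Trim30a, a feedback inhibitor of Toll-like receptor signalling, read 52.5, 54.8 and 74.0 in DUhTP and 48.1, 31.5 and 24.2 in DUC mice on its brighter probe set. The lines did not overlap, yet the DUC arrays spread over a ratio of 1.99, and the FC of 1.80 had an adjusted p of 0.175. Its dimmer probe set gave a log2 fold change of 0.56 with overlap of the lines and an adjusted p of 0.355. Rtp4, an interferon-induced receptor transporter protein, read 164, 216 and 198 against 175, 64.9 and 105 on its brighter probe set. DUC replicate 1 lay among the DUhTP arrays and the other two DUC arrays far below, so the FC of 1.81 had a confidence interval from -0.05 to 1.75 on the log2 scale and an adjusted p of 0.258. The other probe set of Rtp4 was very dim, at 7.29, 6.47 and 9.10 against 6.24, 4.79 and 3.97, without overlap and with an adjusted p of 0.187. Without DUC replicate 1, and with 16 added, Trim30a and Rtp4 both passed the test.

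The antiviral families named for the type I route gave no call under either setting. None of the 3 IFIT, 4 OAS and 2 Mx genes measured passed the test in either direction, with or without 16 added, beside 1.92% of all genes called higher without a constant and 5.31% with it. For 9 genes a count of 0 is near those shares. At an unadjusted p under 0.05 none passed without a constant, and after adding 16 Oas1a (0.025, higher) and Ifit2 (0.0435, lower) did. The IFIT proteins bind viral RNA and hinder its translation. Ifit3 read 159, 188 and 135 in DUhTP and 148, 128 and 116 in DUC mice, a log2 fold change of 0.30 with an interval from -0.12 to 0.71. Ifit1 read 31.1, 34.5 and 45.6 against 39.0, 27.7 and 30.5, with a log2 fold change of 0.19. Ifit2 was near the bottom of the array range, at 4.47, 0.977 and 8.76 against 9.57, 7.56 and 14.8. Its log2 fold change of -1.60 was -0.37 with 16 added.

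The OAS enzymes make the messenger that activates RNase L. Oas1a read 65.2, 85.5 and 67.6 in DUhTP and 67.7, 41.2 and 42.0 in DUC mice. DUC replicate 1 again fell among the DUhTP arrays, and the FC of 1.48 had an adjusted p of 0.25. Oasl1 gave a log2 fold change of 0.22, Oasl2 0.25 and Oas2 -0.44, with adjusted p from 0.345 to 0.666. For Oas2, DUhTP replicate 2 stood at 11.6 where the other 5 arrays read 29.9 to 41.6. Mx1 and Mx2, dynamin-like GTPases against influenza and other viruses, were dim, with Mx1 at 13.8 to 24.8 in DUhTP and 15.1 to 20.4 in DUC mice, and gave log2 fold changes of -0.05 and -0.29.

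Usp18 removes Isg15 from its targets and dampens type I signalling at the receptor. It read 58.4, 98.7 and 63.6 in DUhTP and 93.9, 46.5 and 65.1 in DUC mice. The spread within each line exceeded the difference between them, and the log2 fold change was 0.12 with an interval from -0.67 to 0.91. The interval takes in changes of either sign, so neither a rise nor a fall was established.

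Of the sensors and their regulators, Ifih1 (Mda5) and Eif2ak2 (PKR) recognise double-stranded RNA and Trim25 is a ubiquitin ligase that activates the sensor RIG-I. Ifih1 and the brighter probe set of Eif2ak2 had log2 fold changes of -0.01 each, which turned to positive values near 0 after quantile normalization, and to 0.17 and 0.02 with array weights. The dimmer probe set of Eif2ak2 gave -0.05 with an adjusted p of 0.882. Trim25 was lower in DUhTP mice on all 3 of its probe sets, at log2 -0.28, -0.36 and -0.55. Its brightest read 421, 429 and 438 in DUhTP and 567, 554 and 537 in DUC mice. The lines did not overlap and each was tight, but the adjusted p was 0.118, and it passed the test only under limma-trend (0.0281), which lets the variance prior depend on intensity.

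The transcription factors carry the signal to the nucleus, and 0 of the 5 passed the test in either direction. Of all genes 1.92% were called higher and 1.4% lower, and for 5 genes a count of 0 is near those shares. Irf9, the DNA-binding part of the type I complex, read 113, 162 and 138 in DUhTP and 112, 90.5 and 98.2 in DUC mice. The lines just failed to overlap, and the FC of 1.36 had an unadjusted p of 0.0417 and an adjusted p of 0.217. Irf1, an early target of interferon gamma, read 277, 321 and 279 against 248, 239 and 247, with an FC of 1.19 and an adjusted p of 0.268. Stat2 gave log2 fold changes of -0.22 and -0.03 on its 2 probe sets. Irf7, the amplifier of type I interferon production, gave 0.16, and Irf8, a factor of macrophages and dendritic cells, gave 0.27 on both of its probe sets, with adjusted p from 0.502 to 0.74.

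The elements in the promoters were then set beside the fold changes. Among the 27 measured members with a promoter window, the 14 with an ISRE match had a median log2 fold change of 0.23 with 11 positive, and the 13 without had 0.27 with 11 positive. The 8 with a GAS match had a median of 0.42 with 6 positive, and the 19 without had 0.25 with 16 positive. Of the 7 members higher with 16 added, 3 held an ISRE match (Bst2, Cxcl10 and Igtp) and 3 a GAS match (Bst2, Igtp and Ifi35). These medians are descriptions of few genes and were not tested.

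The arrays differed among themselves within a line. Measured as the median over members of the log2 intensity minus the mean of the 6 arrays, the members stood at 0.13, 0.27 and 0.24 on the DUhTP arrays and at 0.09, -0.32 and -0.14 on the DUC arrays. All 3 DUhTP arrays were thus above all 3 DUC arrays, and DUC replicate 1 lay close to DUhTP replicate 1. DUC replicate 1 was the highest array of its line for 25 of 33 members (75.8%, against 33.5% of all genes). DUC replicate 2 was the lowest of its line for 22 of 33 (66.7%, against 28.6%), and DUhTP replicate 1 the lowest of its line for 20 of 33 (60.6%, against 26.2%). The same median over all genes lay between -0.01 and 0.03 on every array.

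**Figure D3:**
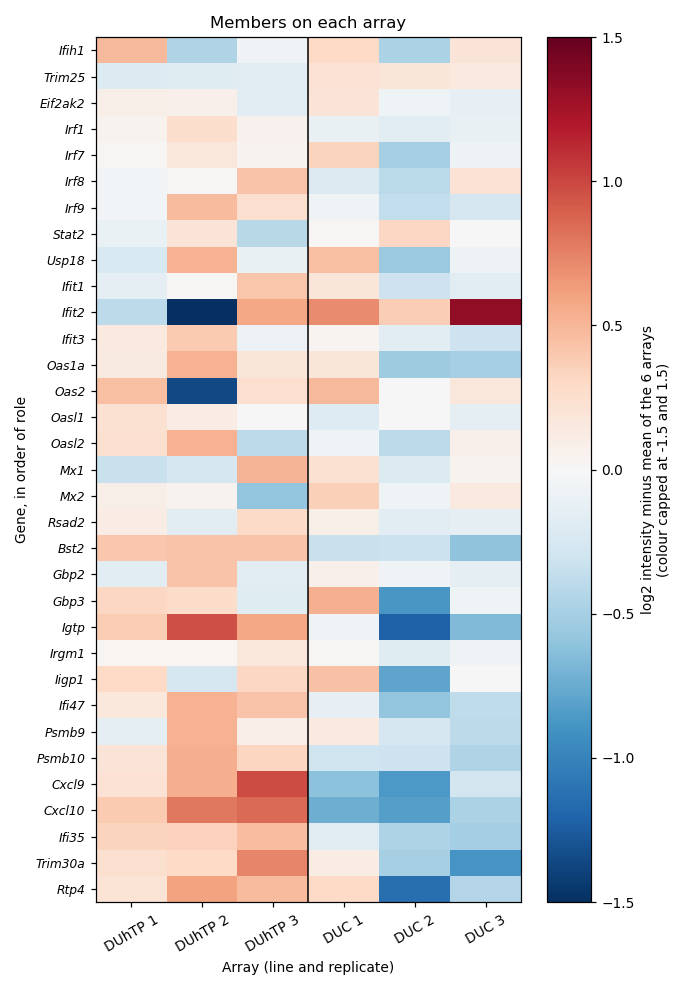
The log2 intensity of each member on each array minus its mean over the 6 arrays, with the 33 genes in order of role as rows, the arrays as columns and the colour capped at -1.5 and 1.5. DUC replicate 2 is below the mean for most members. DUC replicate 1 is near or above the mean for most, but well below it for Cxcl10 (-0.73) and Cxcl9 (-0.61). The rows of Bst2, Cxcl9, Cxcl10, Ifi35 and Psmb10, among others, change colour at the line between the groups.

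Markers of Kupffer cells moved with the members. Of 11 listed markers 10 were measured, 1 rose (Clec4f, a receptor found on mouse Kupffer cells) and 0 fell. Of all genes 1.92% were called higher and 1.4% lower. With 16 added 6 were higher (Adgre1, C1qa, C1qb, Cd68, Clec4f and Csf1r) and Marco was lower, beside 5.31% and 6.0% of all genes. The median log2 fold change over the list was 0.58. Clec4f read 588, 724 and 624 in DUhTP and 346, 259 and 285 in DUC mice, an FC of 2.18 with an adjusted p of 0.032, which was between 0.0708 and 0.137 when an array was left out. The summed intensity of the list was 4594 to 5768 on the DUhTP arrays and 3127 to 4190 on the DUC arrays. Cd5l, a Kupffer cell product, did not follow, at a log2 fold change of -0.01. The list stood at 0.19, 0.50 and 0.23 on the DUhTP arrays and at -0.07, -0.43 and -0.33 on the DUC arrays, so that the 6 arrays took the same order as for the members. In bulk liver RNA fewer cells of a type and less RNA per cell cannot be told apart, and the part of the Kupffer cell signal in the result was not tested.

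Exocrine pancreas markers ran the other way. All 8 measured had a negative log2 fold change, where 50.2% of all genes had a positive one, and the median was -2.09. None of the 8 passed the test without a constant, beside 1.4% of all genes called lower. With 16 added 4 were lower, beside 6.0% of all genes. Their summed intensity was 987 to 3661 on the DUhTP arrays and 4017 to 7718 on the DUC arrays. The median of the list was 0.22, -3.11 and -0.58 on the DUhTP arrays and 0.66, 1.46 and 1.1 on the DUC arrays, an order exactly opposite to that of the members. DUhTP replicate 2 stood apart with the lowest values. The median fold change of the members without that array was 0.21 on the log2 scale. That fit keeps the DUC arrays, which had the higher pancreas values, so it cannot speak to pancreatic RNA. The part of pancreatic RNA in the result was not tested.

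**Figure D4:**
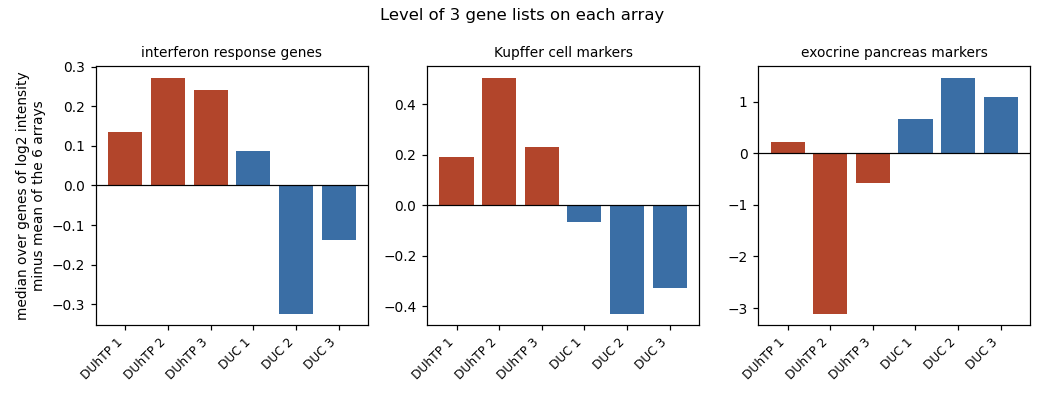
Median over genes of the log2 intensity minus the mean of the 6 arrays (vertical axis) for the members, the Kupffer cell markers and the exocrine pancreas markers on each array, as bars from 0 with their own scale per panel, DUhTP in red and DUC in blue. The members run from 0.27 on DUhTP replicate 2 to -0.32 on DUC replicate 2, and pancreas markers run the reverse way.

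Lymphocyte markers gave no call. Of T cell markers 6 and of NK cell markers 7 were measured, and 0 passed the test in either list with or without 16 added. Of all genes 1.92% were called higher and 1.4% lower, and 5.31% and 6.0% with 16 added. For lists this short a count of 0 is near those shares. Summed intensities were 469 to 521 in DUhTP and 507 to 561 in DUC mice for T cells. For NK cells they were 160 to 173 against 140 to 158. Most of the probe sets summed were dim, 5 of 6 and 7 of 7 below the median probe set. Cd8a, the bright one, made up most of the T cell sum, at 384, 380 and 372 in DUhTP and 392, 382 and 443 in DUC mice. Its log2 fold change was -0.10 there and 0.12 on its dimmer probe set. Hepatocyte markers were bright, and 2 of the 6 measured, Cps1 and Tat, were lower in DUhTP mice without overlap, where 16% of all genes were. On its brightest probe set 1 marker, Ttr, was higher without overlap, where 15.6% of all genes were. Cps1, the first enzyme of the urea cycle, read 8371, 7616 and 8864 in DUhTP and 10750.0, 9902 and 10520.0 in DUC mice, at a log2 fold change of -0.33 with an unadjusted p of 0.0265 and an adjusted p of 0.177. The markers Alb, Apoa1, Ttr and Cyp2e1 had log2 fold changes within 0.10 of 0, while Tat, a glucocorticoid-responsive enzyme of tyrosine breakdown, fell by 0.88 on the log2 scale (adjusted p = 0.037, and 0.0701 to 0.139 when an array was left out).

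The pathway around the members was read from a further list of 119 genes, of which 87 were measured. Among these 2 rose, Irgm2 and Trim34a, and 1 fell, Pias1, beside 1.92% and 1.4% of all genes. With 16 added 8 were higher (Casp1, Ifi30, Ifitm3, Irf5, Irgm2, Pml, Psmb8 and Trim34a), which is 9.2% of the genes, and 3 lower (Ifnar2, Pias1 and Tbk1), beside 5.31% higher and 6.0% lower of all genes. The median log2 fold change of the 87 was 0.13.

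**Figure D5:**
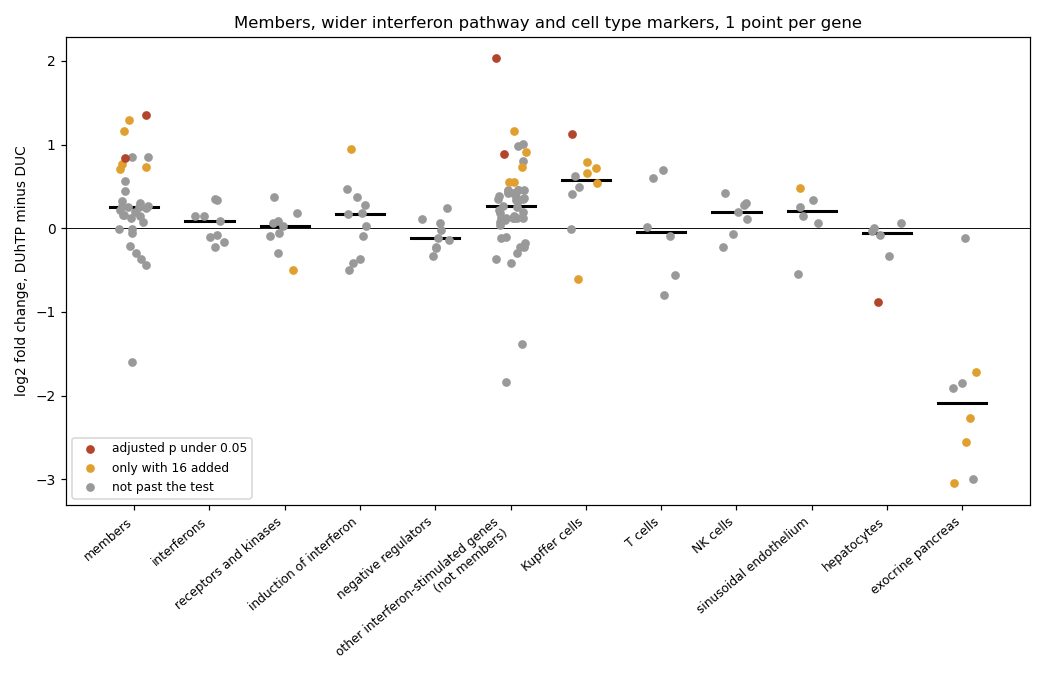
Log2 fold change (DUhTP minus DUC, vertical axis) of each gene by its brightest probe set, in the member list, the 5 lists of the wider pathway and 6 marker lists, with black bars as medians. Red points passed the test, yellow points only with 16 added and grey points neither. The bars of the members (0.25) and of other interferon-stimulated genes (0.26) are close, that of Kupffer cell markers is higher (0.58) and that of pancreas markers is at -2.09.

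The interferons themselves were mostly at low intensity. Of 9 measured genes 8 were dimmer than the median probe set and 0 passed the test in either direction. Of all genes 1.92% were called higher and 1.4% lower, and for 9 genes a count of 0 is near those shares. The exception in intensity was Ifna2, a type I interferon, which read 303, 351 and 344 in DUhTP and 293, 248 and 244 in DUC mice. Its lines did not overlap, and the log2 fold change was 0.35 with an unadjusted p of 0.0372 and an adjusted p of 0.205. Ifng, made by NK and T cells, read 5.89, 5.41 and 3.15 in DUhTP and 1.30, 4.16 and 9.23 in DUC mice. At that level a difference in Ifng was not detectable.

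The receptors and kinases gave 0 calls without a constant, beside 1.92% of all genes called higher and 1.4% called lower. With 16 added 1 of the 9 measured was lower, beside 6.0% of all genes, and that was Ifnar2. Its brighter probe set read 694, 738 and 646 in DUhTP and 994, 977 and 965 in DUC mice. This chain of the type I receptor was lower on every DUhTP array, with an FC of -1.41 and an adjusted p of 0.0732. The adjusted p fell to 0.0215 after adding 16, and it was above the threshold without any array except DUhTP replicate 2 (0.0235), from 0.0513 to 0.0845. Ifnar1, the other chain, read 131, 144 and 156 against 158, 186 and 182, at a log2 fold change of -0.29 with an adjusted p of 0.265. These genes lie side by side with Il10rb between them and Ifngr2 after Ifnar1.

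The chains of the interferon gamma receptor did not pass the test. Ifngr1 gave a log2 fold change of 0.06, the brighter probe set of Ifngr2 0.03, and Il10rb 0.18, with adjusted p from 0.488 to 0.936. The dimmer probe set of Ifngr2 read 48.4, 43.1 and 30.5 against 62.4, 50.4 and 37.9, with a log2 fold change of -0.30 and an adjusted p of 0.548. Tyk2, the kinase bound to Ifnar1, read 63.6, 62.9 and 61.1 in DUhTP and 49.9, 46.8 and 48.7 in DUC mice, without overlap, at an FC of 1.29 and an adjusted p of 0.116. Jak1, Jak2 and Stat3 gave -0.06, 0.08 and -0.10 on their brightest probe sets.

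Among interferon-stimulated genes outside the member list, 49 were measured, 2 rose and 0 fell, beside 1.92% and 1.4% of all genes. A positive log2 fold change was seen in 39 of them (79.6%), against 50.2% of all genes. Irgm2, the regulatory GTPase next to Igtp in the genome, read 204, 221 and 239 in DUhTP and 121, 112 and 124 in DUC mice. The lines were far apart relative to their spread, with an FC of 1.85 and an adjusted p of 0.0282. This was between 0.0711 and 0.126 when an array was left out, and with 16 added it was at most 0.0175.

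Trim34a, a tripartite motif protein, read 63.7, 62.9 and 66.2 in DUhTP and 15.2, 14.5 and 17.7 in DUC mice. Its FC of 4.08 had an adjusted p of 0.00708 and passed without every array except DUC replicate 2 (0.0565). Its second probe set, at 4.45 to 10.4 over the 6 arrays, gave an FC of 1.30 that did not pass (adjusted p = 0.488), so the 2 probe sets of this gene disagree in size.

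Psmb8, the remaining immunoproteasome subunit, and Tap1, the peptide transporter, lie near Psmb9. The order is Psmb9, Tap1 and Psmb8, with no other protein-coding gene between them. Psmb8 read 203, 249.9 and 262 in DUhTP and 169.5, 128 and 93.1 in DUC mice, without overlap. Its FC of 1.88 had an adjusted p of 0.12, and of 0.0253 with 16 added. That call was lost without DUhTP replicate 2 (0.0558), DUhTP replicate 3 (0.0713), DUC replicate 2 (0.0877) or DUC replicate 3 (0.0851). Tap1 gave a log2 fold change of -0.12 on its brightest probe set, with an interval from -0.40 to 0.16. B2m, the light chain of MHC class I, gave 0.13 and 0.11 on its 2 probe sets, with adjusted p of 0.567 and 0.576.

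The others that passed with 16 added act at several steps. Ifitm3, which blocks virus entry, read 3579, 4021 and 3606 in DUhTP and 2477, 1962 and 2342 in DUC mice, an FC of 1.66 with an adjusted p of 0.0556 and of 0.00724 with 16 added, at most 0.0388 when an array was left out. Irf5, which drives inflammatory genes downstream of Toll-like receptors, had an FC of 1.93 (0.0555, and 0.00737 with 16 added) on its brighter probe set, whereas its other probe set gave 1.20. Ifi30, a lysosomal thiol reductase of antigen processing, had an FC of 1.47, as had Pml, the organiser of nuclear bodies. Casp1, the inflammasome protease, read 71.1, 66.9 and 50.5 against 20.9, 43.7 and 23.5, an FC of 2.24. With 16 added the adjusted p was 0.0234 for Ifi30, 0.0467 for Pml and 0.0264 for Casp1. The call was lost for Ifi30 without any array except DUhTP replicate 1, for Pml without any array, and for Casp1 without any array except DUhTP replicate 3 and DUC replicate 2, with adjusted p up to 0.176.

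Pias1, a SUMO ligase that dampens interferon signalling, fell on 1 dim probe set, at 8.31, 2.77 and 3.76 in DUhTP and 29.7, 20.6 and 28.3 in DUC mice (log2 -2.55, adjusted p = 0.0463). That call was kept without DUhTP replicate 1 (0.0365) and lost without any of the other 5 arrays, up to 0.165. Its brightest probe set gave -0.14 with an adjusted p of 0.559. Tbk1, the kinase that activates Irf3, read 52.5, 40.6 and 51.4 against 80.7, 80.2 and 88.1 on the dimmer of its 2 probe sets, an FC of -1.73 with an adjusted p of 0.0532. Its brighter probe set gave -1.29 with 0.209. With 16 added the adjusted p of the dimmer probe set was 0.0108, and 0.059 without DUC replicate 3.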

How the data were processed

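RNA of liver was hybridized to Affymetrix mouse genome arrays, 3 for DUhTP and 3 for DUC mice. Global scaling in GCOS 1.1.1 and summary by PLIER were done by the authors, who deposited each intensity value, which is linear and in arbitrary units. The PLIER version and any added constant are not given in the sources used here. Of 22690 probe sets, 64 controls were left out and 22626 tested. Gene symbols came from the platform annotation, and 20351 of 20380 probe sets with 1 symbol matched by gene number to RefSeq with 0 symbols changed. Array design annotation can be old, and probe sets with the suffix _s, _x or _a can match several transcripts.

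Intensities were logged to base 2 without a constant, as the lowest was 0.101, and compared in limma 3.58.1 under R 4.3.3 (lmFit, eBayes, unpaired, two-sided, all 6 arrays). Values of p were adjusted by the Benjamini-Hochberg method over all 22626 probe sets, with a threshold of 0.05 at any fold change. Dim probe sets vary most on this scale, and the number of arrays limits the precision. FC is the fold change in intensity, and a negative FC means lower in DUhTP mice. A gene was called in a direction if any probe set carrying only its symbol passed, and its fold change is that of the probe set with the highest mean.

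Every member is named, with all probe sets where they differ, and from the wider lists each gene that passed, the receptors and kinases, Tap1, Psmb8 and B2m. The members and lists were chosen with earlier results of these data known, so counts over them are descriptions. Other cell types checked without being described above were monocytes, neutrophils, B cells and cholangiocytes with 0 calls, plasmacytoid dendritic cells (Ccr9 lower with 16 added), conventional dendritic cells (Zbtb46 lower on 1 dim probe set), sinusoidal endothelium and stellate cells (Stab2 and Pdgfrb higher with 16 added) and erythroid cells (Alas2 higher). The alternatives were 16 added, quantile normalization, leaving out the dimmest 33.3% of probe sets, limma-trend, array weights, a replicate block, leaving out each array, leaving out suffixed probe sets, unadjusted p, and the brightest probe set or the mean of probe sets per gene. After seeing the data, 2 settings were added, leaving out an array and the replicate block, both on values with 16 added. The procedure was tested on simulated data in which 200 of 22626 probe sets were changed. It recovered 20.5% of them at a true log2 fold change of 1 and 70.5% at 2. A gene that did not pass the test is therefore not shown to be unchanged.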

Additional observations from a re-analysis of the deposited data

How the results depend on the processing

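Without a constant, 2 members passed the test. The count was 7 with 16 added, 7 of 28 left without the dimmest probe sets, 8 under limma-trend (7 higher, 1 lower), 3 after quantile normalization and 3 with array weights, and 12 at an unadjusted p. It was 0 to 1 when an array was left out and 0 with the replicate block, in limma at 0 of all 22626 probe sets, while 8 members were higher and 2 lower there at an unadjusted p under 0.05. With 16 added it was 4 to 8 when an array was left out, with 4 without DUC replicate 2 or DUC replicate 3, and 7 with the replicate block. Bst2, Cxcl10 and Ifi35 passed in each of these fits with 16 added. The labels give replicate numbers without saying what same-numbered arrays share. Deviations of same-numbered arrays correlated at 0.00341, 0.0048 and 0.0667, and at -0.005, -0.0179 and 0.114 with 16 added. These values cannot show whether same-numbered arrays were handled together.

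The median log2 fold change of the members, 0.25, lay between 0.12 and 0.36 when an array was left out. With 16 added it was 0.16, and 0.0875 (without DUC replicate 2) to 0.29 when an array was left out. In the wider pathway 3 genes passed, with 11 when 16 was added, 12 of 63 without the dimmest probe sets, 12 under limma-trend, 5 after quantile normalization, 28 at an unadjusted p, 0 with the replicate block and 0 to 2 when an array was left out. With 16 added these were 5 to 8 without an array and 10 with the replicate block. The cause of these moves was not tested. No called member turned its sign under any alternative. Of the 44 member probe sets, 0 to 6 turned sign per setting. Calls rest on 3 arrays per line, and 21 of the 44 probe sets were dimmer than the median.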
